A study of Mus musculus with 9 samples.

Results

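The genes described here mark the cells that replace olfactory neurons in the nose: Neurog1, Neurod1, Nhlh1, Nhlh2, Lhx2, Sox11, Stmn1, Dpysl3 and Gap43. They are 9 of the 19938 genes that the arrays measured with at least 1 probe set assigned to a single gene, and all 9 had such a probe set. Each was found by its symbol in the platform annotation. Where a gene had several probe sets the brightest on average stood for it, which applied to Stmn1 alone, with 2. The names were selected on results of these same arrays, that is on their log2 levels in the 3 groups, and which comparison led to the choice is not recorded. Differences of the 9 genes between the groups are therefore given as a description, with the fitted change and its standard error but no p-value. Whether a gene passed a threshold is stated in places and marked in figures, and nothing is read from it.

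Total RNA of nasal mucosa from BALB/c mice, an inbred strain much used for allergic airway models, was measured on 9 Affymetrix Mouse Gene 1.0 ST arrays, 3 per group. All mice are labelled male and 6 to 8 weeks old and were kept free of specific pathogens. The control group was sensitised and challenged with saline. Mice of the OVA group got ovalbumin (from hen's egg, serving as the allergen) in both steps, and their tissue was taken 2 hours after the final challenge. The 4-week group also got ovalbumin in both steps, and its tissue was taken 4 weeks after the final one. The age label is the same for all 3 groups. Whether age at sampling differed between the OVA and 4-week groups is therefore unknown. By its title the series concerns allergen avoidance, and the groups compare the mucosa shortly after challenge and after an allergen-free time. The labels give no dose, route or number of challenges, nor whether each array came from 1 animal, so the spread between arrays may be technical.

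Olfactory neurons are unusual among neurons in that they are renewed throughout life. Globose basal cells, dividing progenitors at the base of the olfactory epithelium, switch on Neurog1 and then Neurod1, transcription factors of the basic helix-loop-helix (bHLH) class that commit a cell to become a neuron. Their daughters express Nhlh1 and Sox11 while they leave the cell cycle, then Stmn1, Dpysl3 and Gap43 while they extend an axon to the olfactory bulb, and finally lose Gap43 and gain Omp, the olfactory marker protein of mature neurons. None of these genes is used by this lineage alone. Stmn1 is found in dividing cells of many kinds, and Sox11, Dpysl3 and Gap43 in other growing neurons, glia and connective tissue.

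The values are log2 expression after RMA (robust multi-array average), so a difference of 1 is a 2-fold difference. The array medians lay between 6.38 and 6.45, and arrays correlated across genes at r = 0.986 to 0.992 within groups and 0.973 to 0.988 between groups. The sex-linked transcripts did not match the labels of the control group. Xist, which shuts down 1 X chromosome in cells of females, averaged 10.81 on the 3 control arrays and 4.31 on the other 6, a 90.5-fold difference, and the Y-linked genes Eif2s3y, Uty and Kdm5d were 31.0-fold, 16.7-fold and 5.02-fold lower there. All 9 genes described here lie on autosomes (chromosomes 1, 2, 3, 4, 12, 13, 16 and 18). For every difference from the arrays labelled control, treatment and sex pattern cannot be told apart, while the OVA and 4-week arrays share the male pattern. The tissue held transcripts of both nasal epithelia: the control means were 12.26 for Omp, 12.86 for Cyp2g1, a cytochrome P450 of olfactory supporting cells, and 7.56 for Foxj1, the master factor of ciliated cells. No detection calls come with the values, so the level at which a gene is above background is unknown.

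Of the 9 genes, 8 had a higher mean in the OVA arrays than in the arrays labelled control, as did 45.3% of all genes. Nhlh1 differed most, at 3.16-fold higher, followed by Sox11 at 2.34-fold, Stmn1 at 2.06-fold, Dpysl3 at 1.66-fold, Neurod1 at 1.54-fold and Gap43 at 1.42-fold, while Neurog1, Nhlh2 and Lhx2 differed by 1.20-fold or less. At 4 weeks the same 6 genes were again the highest above the arrays labelled control, by 1.31-fold to 2.59-fold, and the mean of Lhx2 was 1.41-fold lower. The median log2 change of the 9 genes was 0.62 in OVA minus control, against −0.02 over all 19938 genes, and 0.69 in 4-week minus control, against −0.05. Between the 4-week and OVA arrays the median was −0.14, against −0.03.

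**Figure D1:**
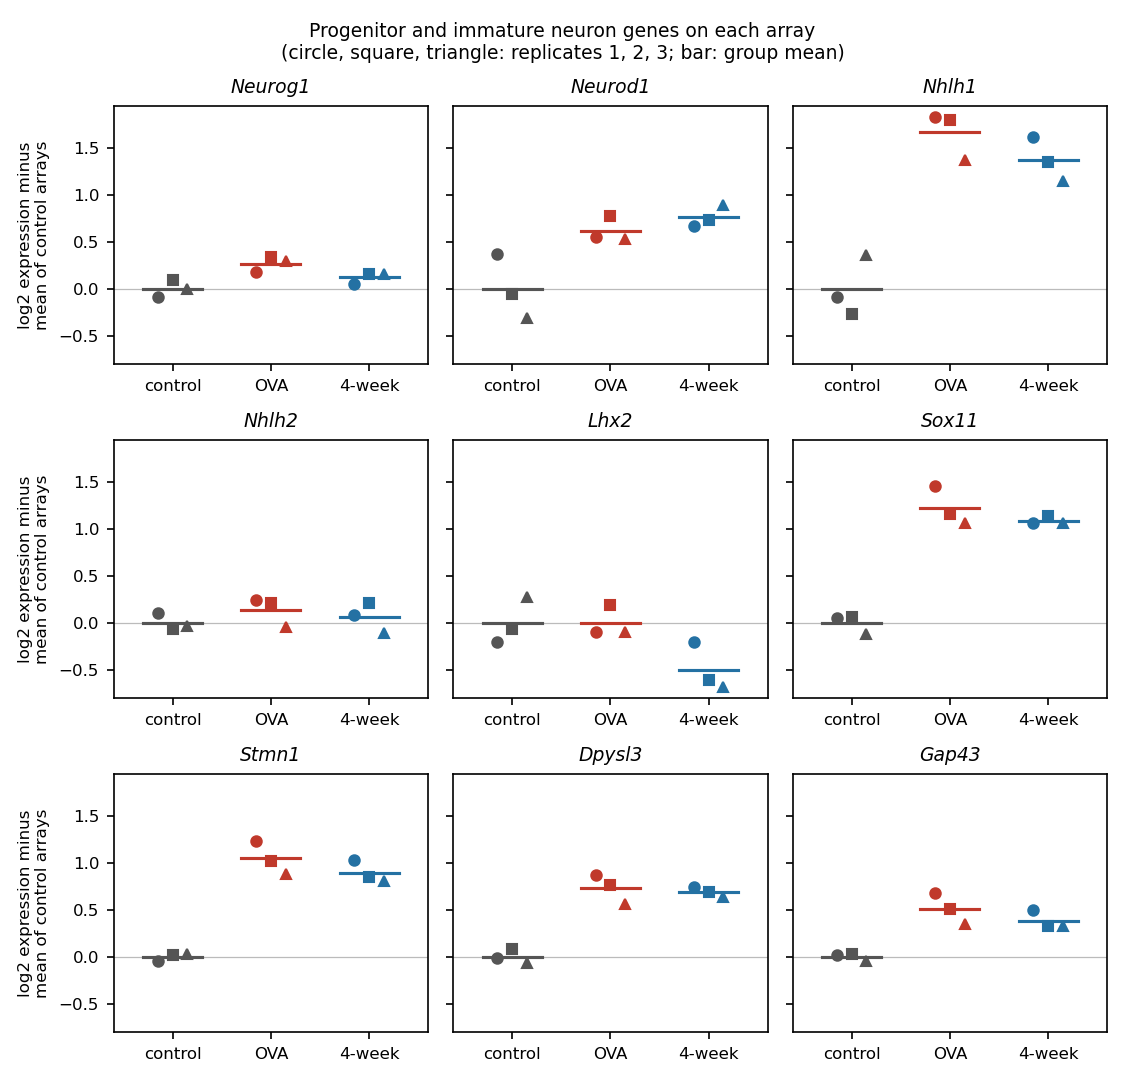
Log2 expression of each of the 9 genes on each array, minus the gene's mean in the arrays labelled control, for the control, OVA and 4-week groups (3 arrays each; circles, squares and triangles are replicates 1, 2 and 3, and bars are group means). The 3 OVA and 3 4-week arrays lie above all control arrays for Nhlh1, Sox11, Stmn1, Dpysl3, Gap43 and Neurod1, while Lhx2 is lowest at 4 weeks.

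On the OVA arrays 7 of the 9 genes lay wholly above the arrays labelled control, where 10.4% of all probe sets did, and none lay wholly below (11.1%). At 4 weeks 6 lay wholly above (16.6%) and 1, Lhx2, wholly below (18.4%). In 4-week minus OVA, 2 lay wholly below (13.7%) and none wholly above (14.5%). In the fit over all arrays, 5 of the 9 genes (Nhlh1, Sox11, Stmn1, Dpysl3 and Gap43) passed an adjusted p of 0.05 in OVA minus control, all of them higher, where 0.782% of the 23410 probe sets tested passed as higher and 1.3% in either direction (60% of those calls were higher, 49.5% after quantile normalization). In 4-week minus control 6 passed, the same 5 and Neurod1, where 7.92% of probe sets passed as higher and 14.4% in either direction. In 4-week minus OVA none of the 9 passed in limma, and 1 (Lhx2) had an unadjusted p under 0.05, where 6.33% of probe sets passed, 3.81% as higher and 2.51% as lower. Because the genes were picked with these comparisons known, nothing is read from these counts. Both comparisons with the arrays labelled control use the same 3 control arrays.

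**Figure D2:**
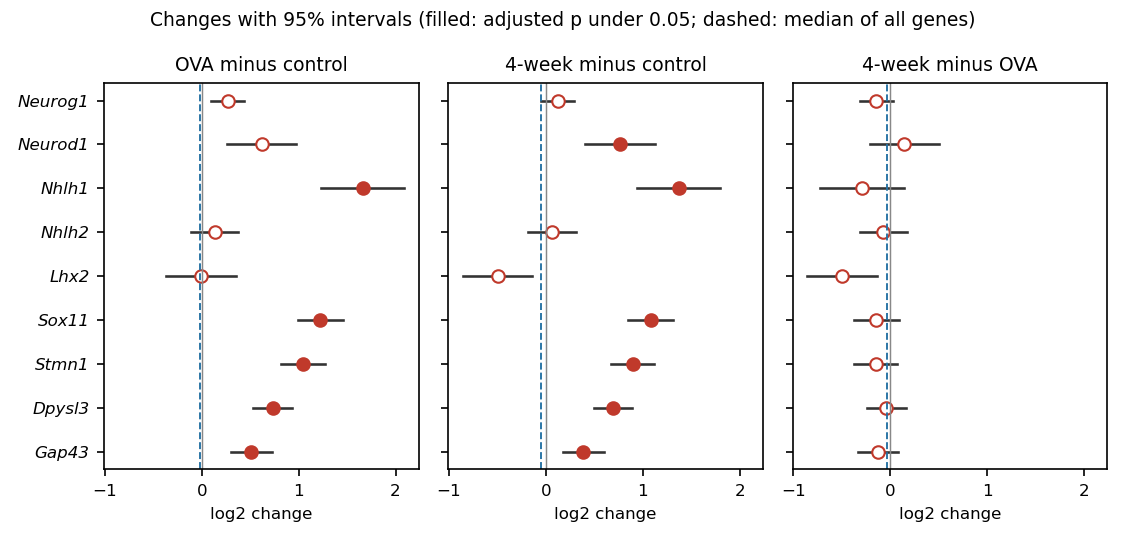
Log2 change of each gene with its 95% interval from limma in OVA minus control, 4-week minus control and 4-week minus OVA (3 arrays per group). Filled points passed an adjusted p of 0.05 over all probe sets, and the dashed line is the median of all genes. Nhlh1 (1.66), Sox11 (1.22) and Stmn1 (1.05) lie farthest to the right in OVA minus control. All intervals but that of Lhx2 include 0 in 4-week minus OVA.

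Stretches before the gene starts are shown for Nhlh1, Sox11 and Neurod1, the bHLH and SOX factors that were high on the same arrays. Proneural bHLH proteins bind the E-box, CANNTG, which reads as CANNTG on the other strand too. Each sequence gives the 250 bases before the start in the gene's RefSeq promoter entry on GRCm38.p6, which for these 3 is also the start of the gene, written 5′ to 3′ along the gene's strand, with every E-box in capitals.
Nhlh1, chr1:172057597-172057846 on the minus strand: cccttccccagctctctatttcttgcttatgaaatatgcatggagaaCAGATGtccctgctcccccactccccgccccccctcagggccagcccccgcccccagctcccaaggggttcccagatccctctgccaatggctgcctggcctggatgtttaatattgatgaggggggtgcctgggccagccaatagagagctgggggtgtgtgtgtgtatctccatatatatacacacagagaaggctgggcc
Sox11, chr12:27342719-27342968 on the minus strand: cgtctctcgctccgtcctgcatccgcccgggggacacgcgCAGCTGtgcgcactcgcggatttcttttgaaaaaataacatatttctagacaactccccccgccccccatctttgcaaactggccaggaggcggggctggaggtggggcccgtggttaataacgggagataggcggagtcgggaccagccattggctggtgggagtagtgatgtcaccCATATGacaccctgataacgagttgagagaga
Neurod1, chr2:79456637-79456886 on the minus strand: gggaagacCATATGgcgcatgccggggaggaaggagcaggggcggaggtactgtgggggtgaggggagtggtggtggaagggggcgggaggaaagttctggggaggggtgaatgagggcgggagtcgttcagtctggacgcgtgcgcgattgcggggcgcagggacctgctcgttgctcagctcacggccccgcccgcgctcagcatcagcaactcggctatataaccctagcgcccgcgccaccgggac

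RefSeq promoter entries were matched for 6 of the 9 genes (Neurog1, Neurod1, Nhlh1, Nhlh2, Lhx2 and Sox11), in 7 windows since Lhx2 had 2. For Nhlh2 and both Lhx2 windows the entry's start lies inside the gene as annotated, so part or all of the window is within the gene, and they are not shown. The window of Nhlh1 held 1 E-box, CAGATG, whose first base lies 203 bases before the start. That of Nhlh2 held 2, CAACTG and CAGATG. Sox11 also held 2, CAGCTG at 210 and CATATG at 32 bases, and Neurod1 held 1, CATATG, at 242 bases. No E-box was found in the windows of Neurog1 and Lhx2. An E-box was thus in 4 of the 7 windows, while 66.2% of all 32851 windows of this length held at least 1. Its form CAGCTG was in 1 of the 7 windows (Sox11) and in 13.0% of all.

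Other short elements were counted in the same windows. CCAAT or its reverse complement was in the windows of Neurog1, Nhlh1, Nhlh2 and Sox11, 4 of the 7, against 33.8% of all windows. TAATTA, a core bound by homeodomain proteins such as Lhx2, was in that of Neurog1 only among the 7, against 4.8% of all. TATAAA and ACAAAG, a core bound by SOX proteins, were in none of the 7, against 12.4% and 16.5% of all. All motifs were searched on both strands. The share of G and C was 58.4% for Nhlh1 and 42.0% for Nhlh2, 58.0% for Sox11 and 67.6% for Neurod1. It was 71.2% for Neurog1 and 72.8% and 68.4% for the Lhx2 windows, with a median of 52.4% over all windows.

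Neurog1, the proneural factor of dividing progenitors, differed little. Its log2 values were 5.22, 5.41 and 5.31 on control replicates 1, 2 and 3, 5.49, 5.65 and 5.61 on OVA replicates 1, 2 and 3, and 5.37, 5.47 and 5.47 on the 4-week replicates. The OVA arrays lay just above the other arrays, by 0.08 from the highest control array and by 0.02 from the highest 4-week array. The change was 0.27 (SE 0.08, n = 3 per group) in OVA minus control and 0.12 (SE 0.08) in 4-week minus control, where the groups overlapped.

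Neurod1, which follows Neurog1 as progenitors stop dividing, was 5.17, 4.75 and 4.49 on the arrays labelled control. It was 5.35, 5.58 and 5.33 on the OVA arrays and 5.47, 5.53 and 5.70 on the 4-week arrays. All 6 arrays of mice given ovalbumin were above all 3 control arrays, whose own spread (SD 0.34) was the widest of the 3 groups. The change was 0.62 (SE 0.16) in OVA minus control and 0.76 (SE 0.16) in 4-week minus control. Neurod1 was the only 1 of the 9 genes with a higher mean at 4 weeks than in the OVA group, by 0.15 (95% interval −0.21 to 0.50). Over the 9 fits that leave out 1 array, the change ran from 0.46 to 0.80 in OVA minus control. In 4-week minus control it ran from 0.61 to 0.95. Whether Neurod1 passed the threshold changed without control replicate 1 in the first comparison and without control replicate 2 in the second. The gene was chosen on these values, so nothing is read from those calls.

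Nhlh1, a bHLH factor of newly formed neurons, was 5.99, 5.81 and 6.44 on the arrays labelled control. The values were 7.90, 7.87 and 7.45 on the OVA arrays and 7.70, 7.43 and 7.23 on the 4-week arrays. The lowest OVA array stood 1.01 above the highest control array, and the lowest 4-week array 0.79 above it. The change was 1.66 (SE 0.19, n = 3 per group) in OVA minus control, 1.37 (SE 0.19) in 4-week minus control and −0.29 (95% interval −0.72 to 0.14) in 4-week minus OVA, where the groups overlapped.

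Nhlh2, the closest relative of Nhlh1, read 5.17, 5.0002 and 5.04 on the arrays labelled control, 5.31, 5.28 and 5.02 on the OVA arrays and 5.15, 5.28 and 4.97 on the 4-week arrays. All 3 groups overlapped, and the changes were 0.13 (SE 0.11) in OVA minus control and 0.06 (SE 0.11) in 4-week minus control. Low array values can compress a change, and without detection calls it is unknown whether Nhlh2 was above background.

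Lhx2, a LIM homeodomain factor needed for olfactory neuron identity and receptor gene choice and kept on in mature neurons, had another pattern. Its values were 9.66, 9.79 and 10.13 on the arrays labelled control and 9.76, 10.05 and 9.76 on the OVA arrays, which overlapped (change −0.0046, SE 0.16). On the 4-week arrays it was 9.65, 9.25 and 9.18, below every OVA array by at least 0.11 and below every control array by at least 0.01. The change was −0.50 (SE 0.16) in both 4-week minus OVA and 4-week minus control. With 1 array left out at a time, the change in 4-week minus control ran from −0.65 to −0.37. There Lhx2 passed the threshold without 4-week replicate 1, after quantile normalization and among the upper 60% of probe sets by mean. Nothing is read from those calls, since the gene was chosen on these values.

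Sox11, a SOX factor of newborn neurons that promotes neuronal gene expression, was 6.22, 6.23 and 6.05 on the arrays labelled control, 7.62, 7.33 and 7.23 on the OVA arrays and 7.22, 7.30 and 7.22 on the 4-week arrays. The lowest of the 6 ovalbumin arrays was 0.99 above the highest control array, and the OVA and 4-week arrays overlapped. The change was 1.22 (SE 0.10) in OVA minus control, 1.08 (SE 0.10) in 4-week minus control and −0.14 (95% interval −0.38 to 0.09) in 4-week minus OVA.

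Stmn1 encodes stathmin, a protein that binds tubulin and destabilises microtubules in dividing cells and growing axons. It was 8.82, 8.88 and 8.89 on the arrays labelled control, 10.10, 9.89 and 9.74 on the OVA arrays and 9.89, 9.71 and 9.67 on the 4-week arrays. The control arrays were close together (SD 0.04), all 6 other arrays were at least 0.78 above them, and the OVA and 4-week arrays overlapped. The change was 1.05 (SE 0.10) in OVA minus control, 0.89 (SE 0.10) in 4-week minus control and −0.15 (95% interval −0.37 to 0.07) in 4-week minus OVA. The second probe set of Stmn1, which carries the same transcript accessions in the annotation and did not stand for the gene, gave 1.04 (SE 0.11), 0.93 (SE 0.11) and −0.11 (SE 0.11) for these 3 comparisons. It measures the same RNA on the same arrays and is no independent support.

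Dpysl3, a collapsin response mediator protein of growing axons, was 8.47, 8.57 and 8.41 on the arrays labelled control. It was 9.35, 9.24 and 9.04 on the OVA arrays and 9.23, 9.17 and 9.12 on the 4-week arrays. The 6 ovalbumin arrays lay at least 0.48 above the control arrays and overlapped with each other. The change was 0.73 (SE 0.09) in OVA minus control, 0.69 (SE 0.09) in 4-week minus control and −0.04 (95% interval −0.24 to 0.16) in 4-week minus OVA.

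Gap43, the growth-associated protein of axonal growth cones and the classical marker of immature olfactory neurons, was 7.21, 7.21 and 7.15 on the arrays labelled control. The OVA arrays read 7.87, 7.69 and 7.54 and the 4-week arrays 7.69, 7.51 and 7.52. All 6 were at least 0.30 above the control arrays, and the 2 ovalbumin groups overlapped. The change was 0.51 (SE 0.09) in OVA minus control, 0.38 (SE 0.09) in 4-week minus control and −0.13 (95% interval −0.34 to 0.08) in 4-week minus OVA. With 1 array left out at a time, the change ran from 0.43 to 0.59 in OVA minus control and from 0.33 to 0.42 in 4-week minus control. In OVA minus control Gap43 passed without OVA replicate 3 or 4-week replicate 1 but in none of the other 7 such fits. For 4-week minus control the call was lost in 5 of the 9 fits. Those were the fits without any 1 control array or without 4-week replicate 1 or 2. The gene was chosen on these values, so nothing is read from its calls.

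The 9 genes also differed in how they moved between arrays of the same group. OVA replicate 1 was the highest of the 3 OVA arrays for 6 of the 9 genes (Nhlh1, Nhlh2, Sox11, Stmn1, Dpysl3 and Gap43), as it was for 32.6% of all genes, and OVA replicate 3 was the lowest for 8 of the 9, as it was for 33.2% of all genes. The deviations of Stmn1 from its group means ran with those of Gap43 (r = 0.94 over the 9 arrays), Dpysl3 (0.84), Nhlh1 (0.665) and Sox11 (0.63), and those of Dpysl3 with Gap43 (0.90). The same measure was −0.51 between Stmn1 and Neurog1 and −0.31 between Stmn1 and Neurod1. These values are descriptions of arrays that share their RNA, hybridisation and normalization across genes.

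Other genes of the lineage and of neighbouring cell types were taken from lists, and 170 of them were analysed here. In OVA minus control 4 of the 170 rose and none fell (2.35%, where 1.3% of all probe sets passed). All 4 are from the lists of globose basal cells or of other immature neuron genes. The lists were chosen with earlier results of these data known, so nothing is read from where the 4 fall. Without control replicate 2, or without OVA replicate 1, 0 of the listed genes passed in that comparison. In 4-week minus control 12 rose and 10 fell (12.94%, where 14.4% passed), and in 4-week minus OVA 2 rose and 4 fell (3.53%, where 6.33% passed).

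Of 8 measured genes of globose basal cells, Insm1, a zinc finger factor of the last progenitor divisions, rose in OVA minus control. It was 6.90, 7.23 and 7.16 on the arrays labelled control, 7.91, 7.70 and 7.69 on the OVA arrays and 7.48, 7.34 and 7.31 on the 4-week arrays, so that the OVA arrays were above all others. The change was 0.67 (SE 0.11, n = 3 per group, adjusted p = 0.0235 in limma), and 0.28 (adjusted p = 0.106) in 4-week minus control. Kit, the stem cell factor receptor found on these progenitors, rose at 4 weeks relative to the arrays labelled control (0.56, SE 0.15, adjusted p = 0.0411) and had 0.45 (adjusted p = 0.192) in OVA minus control. The call of Insm1 was lost in 5 of the 9 fits that leave out 1 array (adjusted p up to 0.0847) and that of Kit in 6 (up to 0.118). The other 6 (Lgr5, Sox2, Hes6, Hes5, Ezh2 and Cxcr4) passed in no comparison, and the list median, 0.15 in OVA minus control, was 0.23 in 4-week minus control.

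Of 28 other genes of immature neurons and neurite growth, 3 rose in OVA minus control and none fell. Of all probe sets, 0.782% passed there as higher. Tubb2b, a beta-tubulin of young neurons, was 7.63, 7.42 and 7.85 on the arrays labelled control, 8.85, 8.72 and 8.38 on the OVA arrays and 8.66, 8.43 and 8.34 on the 4-week arrays. All 6 ovalbumin arrays were above all control arrays, with changes of 1.01 (SE 0.15, adjusted p = 0.0189 in limma) in OVA minus control and 0.84 (adjusted p = 0.00913) in 4-week minus control. Tubb2a, its neighbour in the tubulin family, rose in both comparisons as well (0.79 and 0.45, adjusted p = 0.0192 and 0.0346). The 2 tubulins are close in sequence, and how far their probe sets share signal was not tested. Gng8, a G protein subunit of immature olfactory neurons, was 6.32, 6.09 and 6.41 on the arrays labelled control, 6.96, 6.97 and 7.001 on the OVA arrays and 6.71, 6.44 and 6.35 on the 4-week arrays. It rose in OVA minus control (0.70, SE 0.11, adjusted p = 0.0234) and fell in 4-week minus OVA (−0.48, adjusted p = 0.0391), and the 4-week arrays overlapped with the control arrays (0.23, adjusted p = 0.189).

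Those calls moved with single arrays. In OVA minus control, Tubb2b did not pass in 4 of the 9 fits that leave out 1 array, Tubb2a in 2 and Gng8 in 5 (adjusted p up to 0.0834, 0.0799 and 0.0864). In 4-week minus OVA, Gng8 did not pass in 6 of them (adjusted p up to 0.122), nor after quantile normalization, with every row or with these groups alone. In 4-week minus control 7.92% of all probe sets passed as higher. At 4 weeks 5 of the 28 had risen over the arrays labelled control and none had fallen: Tubb2a, Tubb2b, Marcks, a membrane-bound actin regulator (0.70, SE 0.12, adjusted p = 0.00848), Nrp1 and Cd24a. Of these calls, that of Cd24a was lost in 6 of the 9 fits that leave out 1 array (adjusted p up to 0.102), that of Tubb2a in 5 (up to 0.101) and that of Nrp1 in 1 (without control replicate 2). The median of the list was 0.12 in OVA minus control, −0.14 in 4-week minus OVA and 0.06 in 4-week minus control, against −0.02, −0.03 and −0.05 over all genes.

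Relatives of the 9 genes within that list are named here after their values were seen. Stmn1 and Dpysl3 were themselves chosen on these values, so nothing is read from their larger changes. In that list 22 of the 28 were positive in OVA minus control, against 45.3% of all genes. In OVA minus control, Stmn2, Stmn3 and Stmn4 had 0.16, 0.09 and −0.10, next to 1.05 for Stmn1. Dpysl2, Dpysl4, Dpysl5 and Crmp1, of the same family, had 0.16, 0.03, 0.09 and 0.28, next to 0.73 for Dpysl3, and the OVA arrays of Crmp1 lay wholly above its control arrays. Dcx (doublecortin, a microtubule protein of migrating neurons), Ncam1 and Tubb3, all widely used markers of young neurons, had −0.07, 0.01 and 0.31, and none of these 10 passed in any of the 3 comparisons. Basp1, which like Gap43 and Marcks is a growth cone protein, had 0.25. The differences between relatives were not tested.

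**Figure D3:**
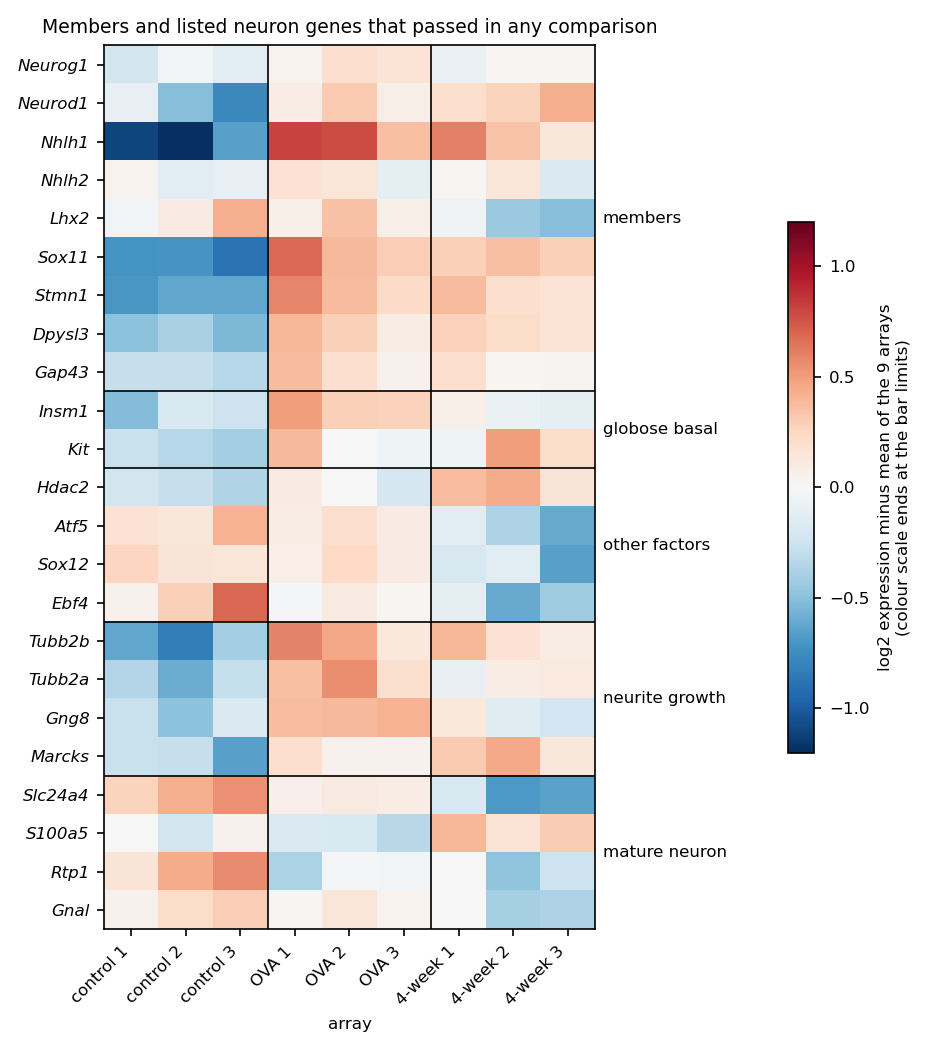
Log2 expression minus the mean of the 9 arrays for the 9 genes and for up to 4 listed genes per neuron list that passed in any comparison (rows) on each of the 9 arrays (columns). Nhlh1, Sox11, Stmn1 and Tubb2b are low on the 3 control arrays and high on the other 6, Gng8 and Insm1 are highest on the OVA arrays, and Slc24a4 is lowest at 4 weeks.

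Factors that act with or against the proneural genes gave no common direction. Of 20 genes of Notch signalling and bHLH regulation, none passed in OVA minus control in limma (2 at an unadjusted p under 0.05). Dll1 and Dll3, Notch ligands that progenitors present to their neighbours, had 0.13 and −0.08. At 4 weeks against control 2 of the 20 rose and 3 fell, where 14.4% of all probe sets passed in either direction. Id2, an inhibitor that binds bHLH partners, rose by 0.87 (SE 0.15, adjusted p = 0.00934), and Tcf12, 1 of those partners, by 0.32 (adjusted p = 0.0261). Jag2, another Notch ligand, fell by 0.40 (adjusted p = 0.0367), Tcf3, another such partner, by 0.40 (adjusted p = 0.0325), and Numb, an inhibitor of Notch, by 0.26 (adjusted p = 0.0312). Id2 passed in all 9 fits that leave out 1 array, while the calls of Jag2, Tcf12, Tcf3 and Numb were lost in 8, 5, 5 and 5 of them. Tcf12 also rose in 4-week minus OVA (0.34, adjusted p = 0.0372), a call lost in 8 of the 9 fits.

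Of 23 other transcription factors of olfactory neuron formation, none passed in OVA minus control (3 at an unadjusted p under 0.05), and Ebf1 and Ebf2, factors that act through much of the lineage, had 0.04 each. Against control, 4 of the 23 passed on the 4-week arrays, where 14.4% of all probe sets did. Ebf4, another of that family, fell by 0.73 (SE 0.17, adjusted p = 0.0232), Sox12, a relative of Sox11, by 0.51 (adjusted p = 0.0312), and Atf5, a factor of the unfolded protein response that olfactory receptor expression switches on, by 0.61 (adjusted p = 0.0149). Hdac2, a histone deacetylase, rose by 0.61 (adjusted p = 0.00751). Atf5 was also the only 1 of the 23 to pass in 4-week minus OVA (−0.50, adjusted p = 0.0477), a call lost in 7 of the 9 fits. The direction of Ebf4, Sox12 and Atf5 was that of Lhx2, and it was the more common one. In 4-week minus control 6 of the 23 were positive, against 40.3% of all genes. The calls in 4-week minus control were lost in 4 of the 9 fits for Ebf4, 3 for Sox12, 1 for Atf5 and none for Hdac2, and that of Sox12 also after quantile normalization. The list median was −0.12 in 4-week minus control and −0.20 in 4-week minus OVA.

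Most listed genes of the mature stage had a lower mean on the OVA arrays than on the arrays labelled control. The 9 genes were chosen on their values, so no contrast with them is drawn. Of 19 markers of mature olfactory neurons, none passed in OVA minus control (5 at an unadjusted p under 0.05). A positive change was found in 3 of the 19, against 45.3% of all genes, so lower was the more common direction over all genes too. Omp was 12.08, 12.26 and 12.43 on the arrays labelled control, 11.69, 11.87 and 11.91 on the OVA arrays and 12.08, 11.47 and 11.78 on the 4-week arrays (−0.44 and −0.48 relative to control, adjusted p = 0.208 and 0.0669). In 4-week minus control 3 of the 19 passed as lower and 1 as higher, where 14.4% of all probe sets passed in either direction. Slc24a4, an ion exchanger that ends the odour response, fell by 0.92 (SE 0.13, adjusted p = 0.00453), Rtp1, a chaperone of odorant receptors, by 0.63 (adjusted p = 0.0304) and Gnal, the olfactory G protein, by 0.44 (adjusted p = 0.0349). S100a5, a calcium-binding protein whose transcript rises with neuronal activity, went the other way (0.35, adjusted p = 0.0434). Slc24a4 passed in all 9 fits that leave out 1 array, while the calls of Rtp1, Gnal and S100a5 were lost in 4, 7 and 9. In 4-week minus OVA, S100a5 rose by 0.52 (adjusted p = 0.0196) and Slc24a4 fell by 0.59 (adjusted p = 0.0344), calls lost in 4 and 6 of the 9 fits.

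**Figure D4:**
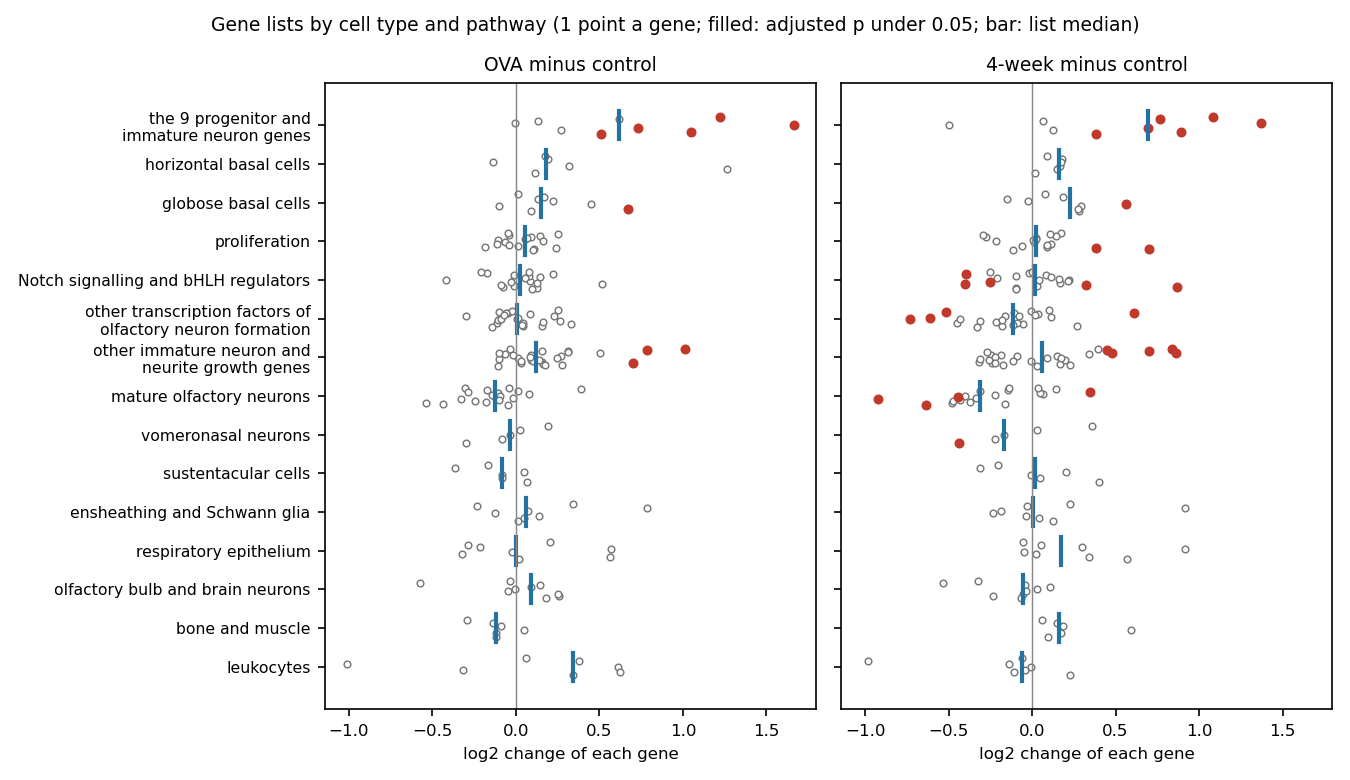
Log2 change of each gene (1 point) in OVA minus control and 4-week minus control for the 9 genes and 14 lists, with filled points for an adjusted p under 0.05 and bars for medians. The median of the 9 genes, 0.62 and 0.69, lies to the right of the lists' medians, which run from −0.12 to 0.34 and from −0.31 to 0.23; the 9 genes were chosen with these values known.

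In whole mucosa, a larger share of cells of a type and more RNA per cell cannot be told apart. The mean log2 level over the 19 mature neuron markers was 10.05 to 10.50 on the arrays labelled control, 10.03 to 10.21 on the OVA arrays and 9.84 to 10.29 on the 4-week arrays. That of 17 proliferation genes was 6.04 to 6.29, 6.14 to 6.28 and 6.07 to 6.35. In OVA minus control 10 of 17 were positive, against 45.3% of all genes, and none passed (1 at an unadjusted p under 0.05). Mki67, a marker of dividing cells, had 0.11 in OVA minus control and rose in 4-week minus control (0.70, adjusted p = 0.0404), as did Top2a, a topoisomerase of dividing cells (0.38, adjusted p = 0.0355). Each was lost in 7 of the 9 fits that leave out 1 array. The other 15 of the 17 did not pass in 4-week minus control, where 14.4% of all probe sets passed. There 12 of 17 were positive, against 40.3% of all genes, the list median was 0.025 and the lowest change was −0.29 (Aurkb).

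Markers of other cells that can express Gap43, Sox11, Dpysl3 or Stmn1 were compared in the same way, and their part in the differences was not tested. The mean over 8 genes of ensheathing and Schwann glia was 7.13 to 7.25 on the arrays labelled control, 7.19 to 7.48 on the OVA arrays and 7.13 to 7.40 on the 4-week arrays. None of the 8 passed in any comparison (1 at an unadjusted p under 0.05 in OVA minus control, 0 in 4-week minus OVA and 1 in 4-week minus control). Their changes ran from −0.23 to 0.79 in OVA minus control, with 6 of 8 positive, against 45.3% of all genes. In 4-week minus control they ran from −0.24 to 0.91, with 4 of 8 positive, against 40.3% of all genes. Over 6 genes of horizontal basal cells, the reserve stem cells, the mean was 6.84 to 7.48, 7.28 to 8.02 and 7.28 to 7.38. Krt5 and Krt14, keratins that define these cells, had 0.32 and 0.19 in OVA minus control, while Krt15 had −0.14. Icam1 of that list had 1.26 (adjusted p = 0.238), with 9.60 on OVA replicate 2, the array with the mean of 8.02. Over 9 genes of olfactory bulb and brain neurons it was 5.61 to 5.66, 5.53 to 5.79 and 5.49 to 5.54. Tbr1, a cortical and bulb factor, was the only 1 of these 9 to pass, and only in 4-week minus OVA (−0.30, adjusted p = 0.0474), a call lost in all 9 fits that leave out 1 array and under 6 of 7 other settings.

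The 7 leukocyte genes averaged 6.27 to 7.15 on the arrays labelled control, 6.79 to 7.06 on the OVA arrays and 6.37 to 6.90 on the 4-week arrays, with Ptprc (CD45, present on all leukocytes) at 0.34 in OVA minus control (adjusted p = 0.307). The 7 went different ways, from −1.01 to 0.62 in OVA minus control with 5 of 7 positive, against 45.3% of all genes. In 4-week minus control they ran from −0.98 to 0.23, with 1 of 7 positive, against 40.3% of all genes. The 6 bone and muscle genes averaged 6.00 to 6.40, 6.02 to 6.20 and 6.16 to 6.56. The 8 genes of respiratory epithelium averaged 8.41 to 8.95, 8.61 to 8.91 and 8.94 to 8.98, the 6 of sustentacular cells 11.36 to 11.48, 11.26 to 11.38 and 11.40 to 11.57, and the 5 of vomeronasal neurons 7.98 to 8.08, 7.90 to 8.09 and 7.79 to 8.02. No gene of these 5 lists passed except Bcl11b, a factor of vomeronasal neurons that is also used by T cells, which fell in 4-week minus control (−0.44, adjusted p = 0.0353, lost in 6 of the 9 fits).

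The genes most like the 9 in pattern were ranked by Pearson's correlation over the 9 arrays with the mean of the 9 standardised profiles, among 17505 genes and without receptor families or predicted transcripts. The first 10 were Hnrnpa2b1 (an RNA-binding protein, r = 0.98), P4ha1 (a collagen prolyl hydroxylase, 0.98), Zfand6, Pnrc1, Grpel2, Tubb2b, Etv6, Socs2, Ifrd1 and Plod3 (0.96 or 0.97 each). Of these only Tubb2b is in the lists of neuron genes. Their changes in OVA minus control ran from 0.31 (Plod3) to 1.01 (Tubb2b) and in 4-week minus control from 0.23 (Hnrnpa2b1) to 0.84 (Tubb2b). That these are positive follows from the choice by r with the 9 genes, so nothing is read from it. Nearest to Nhlh1 alone were Tubb2b and Hivep2, a zinc finger factor (r = 0.99 each), then P4ha1 and Pnrc1 (0.97) and Crebrf (0.96). With the group means removed, r with Nhlh1 was 0.96 for Tubb2b, 0.93 for Hivep2 and 0.60 for P4ha1, values that the choice by r over the same arrays partly fixes.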

How the data were processed

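The study hybridised whole-transcript cDNA of nasal mucosa RNA, 1 array for every sample. The authors deposited log2 values, 1 for every probe set, summarised by RMA per the submitters' processing notes, which background-corrects and quantile-normalizes probes, so each array is forced to a like distribution. No source used here names the software or probe set library, and the range of the values (1.63 to 13.8) is the basis for calling them log2. Genes came from the platform annotation of the 35556 rows: 23410 had a symbol and were tested, and 21789 had exactly 1 gene. All 9 genes matched the RefSeq table of GRCm38.p6 by gene number.

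Group means were fitted once over the 9 arrays in limma 3.58.1 (R 4.3.3) with moderated variances (6 residual and 2.98 prior degrees of freedom). Tests were two-sided, and p-values were adjusted by Benjamini-Hochberg over the 23410 probe sets for every comparison on its own, at 0.05. The fit was tested on simulated data. Precision is limited by the 3 arrays per group.

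The 9 genes and the lists were chosen with earlier results of these data known. All 9 genes are named. From each list up to 4 genes that passed in any comparison, by the smallest moderated F-test p, and the first 2 listed could be named (some first-listed genes are not described), then the 10 genes most like the 9 and the 5 most like Nhlh1. Outside this rule, Tcf3, Nrp1, Cd24a, Dcx, Tubb3, Basp1, Krt15, Icam1, Aurkb, the other 6 globose basal cell genes and the relatives of Stmn1 and Dpysl3 were named after their values were seen. Alternatives were quantile normalization, median centring, only the brighter 60% of probe sets, all rows, 1 probe set per gene, the 2 compared groups only, a trended robust prior, the replicate number as a block, the mean of a gene's probe sets and leaving out each array.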

Additional observations from a re-analysis of the deposited data

How the results depend on the processing

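No change past the threshold reversed under any alternative, while differences of Nhlh2, Lhx2 and Dpysl3 (the last in 4-week minus OVA) that had not passed changed sign in some fits that leave out 1 array, and the number of the 9 genes past the threshold was 4 or 5 in OVA minus control, 4 to 7 in 4-week minus control and 0 between the ovalbumin groups. Counts over probe sets and listed genes moved more, and the cause was not tested. Nothing is read from how many of the 9 genes passed under any setting, since they were chosen on these same values. With every row tested, OVA minus control had 143 probe sets and 2 listed genes past the threshold (305 and 4 as reported), and listed genes numbered 2 in 4-week minus OVA (6 as reported) and 14 in 4-week minus control (22 as reported). With the 2 compared groups alone, which leaves fewer samples, the probe sets and listed genes were 109 and 1 in OVA minus control, then 737 and 1 for 4-week minus OVA (1481 as reported) and 2054 and 11 in 4-week minus control (3364 as reported). In 4-week minus OVA, 1 probe set per gene gave 946 calls and the upper 60% gave 13 listed genes. Leaving out 1 array gave 63 to 305 probe sets and 0 to 4 listed genes in OVA minus control, 446 to 1361 and 0 to 7 in 4-week minus OVA, and 1560 to 2966 and 7 to 26 in 4-week minus control. The lowest counts came without control replicate 2 (63), OVA replicate 3 (446) and 4-week replicate 2 (1560). Quantile normalization moved Neurog1 to 0.23 and Dpysl3 to 0.58 in 4-week minus control. Same-numbered arrays of different groups deviated together in only some pairs (r = −0.044 to 0.332, over 0.1 in 5 of 9 pairs, among them all 3 of replicate 3), so the numbers were not taken as pairs. With the replicate block, 213 probe sets and 5 of the 9 genes passed in OVA minus control, then 1397 and 0 for 4-week minus OVA, and 3271 and 6 in 4-week minus control. Low array signals compress differences, and without detection calls the lowest levels, such as those of Neurog1, Neurod1 and Nhlh2, are the least certain.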
